A study of Mus musculus with 6 samples.

Results

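The MYC, MAX and MXD network is a set of DNA-binding proteins that share the partner MAX and compete for the same E-box sites in promoters. The genes described here were chosen by name: Myc, Mycn, Max, Mxd1, Mxd3, Mxd4, Mxi1, Mnt, Mga and Mlx. Of these 10, 9 had a row among the 13185 gene rows of the deposited table, and all 9 passed the filter on low values and were tested. Mycn had no row and was not analysed here. The study sequenced the 3' ends of polyadenylated transcripts in 6 libraries of Notch1-driven mouse leukaemia cells of the T lineage (acute lymphoblastic leukaemia, T-ALL). Cells of 3 libraries were exposed for 2 h to panobinostat at 25 nM, a drug that blocks histone deacetylases (HDACs), and those of the other 3 were left untreated over the same time. Both groups were cultured with 2.5 ug/mL of plate-bound anti-CD3, an antibody that stimulates the T cell receptor complex, and with 100 U/mL of IL-2, a cytokine that sustains T cell growth. The labels give neither the Notch1 allele nor the strain or age of the mice. They also do not say whether the libraries within a group are separate cultures, so every p-value reflects the spread among these samples alone, and that spread may be technical.

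MYC and its relative MYCN bind E-boxes as dimers with MAX and recruit histone acetyltransferases, which favours transcription of genes for growth and ribosome production. The MXD proteins, MXI1 and MNT also dimerise with MAX, but recruit the SIN3 corepressor with HDAC1 and HDAC2, the class of enzyme that panobinostat inhibits. MGA joins MAX in a polycomb-type repressor complex, and MLX is the partner of the glucose-sensing factor MondoA (gene Mlxip) in a parallel branch. In T-ALL driven by Notch1, Myc is a well-known target of Notch1.

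The E-box that these proteins bind best has the letters CACGTG, which read the same on both strands. Promoter windows from RefSeq (GRCm38.p6, 250 bases before to 50 after an annotated start) were listed for 9 of the 10 genes. The exception was Myc. The E-box was present once in each of 4 genes, Max, Mlx, Mnt and Mxd4, which is 44.4% of the 9 genes. Of all 27025 genes with such a window, 8.09% held it, and of the 8867 genes of the deposited table with such a window, 11.9%. Mycn is among the 9 genes though it had no row in the deposited table. A count of 4 genes is not read as particular to the network. No other motif was searched. The stretches that hold it are shown because they place the letters that network proteins bind in the network's own genes. The E-box is in capitals, each stretch is given 5′ to 3′ on the gene's strand, and the coordinates are on GRCm38.p6.
Max, chr12:76962234-76962263, minus strand: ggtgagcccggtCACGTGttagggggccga
Mlx, chr11:101087223-101087282, plus strand: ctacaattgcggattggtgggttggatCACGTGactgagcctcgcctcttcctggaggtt
Mnt, chr11:74830774-74830833, plus strand: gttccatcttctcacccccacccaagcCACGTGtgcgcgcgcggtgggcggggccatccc
Mxd4, chr5:34187897-34187956, minus strand: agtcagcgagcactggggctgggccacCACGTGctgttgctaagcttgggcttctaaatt
Counted from the RefSeq start, the E-box of Max runs across the start site, from base -3 to base 3. In Mlx it lies at bases -40 to -35, in Mnt at -123 to -118 and in Mxd4 at -219 to -214. The gene positions given with the levels are those of GENCODE, whose start of Max lies 47 bases further downstream. From that start the E-box of Max is at bases -50 to -45, upstream of the gene. For Mlx, Mnt and Mxd4 the starts differ by 13, 4 and 10 bases, and the E-box is upstream of either start. The windows of Mxd1, Mxd3, Mga and Mycn and all 3 windows of Mxi1 did not hold these letters. A match is a description of the sequence and shows no binding.

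**Figure D1:**
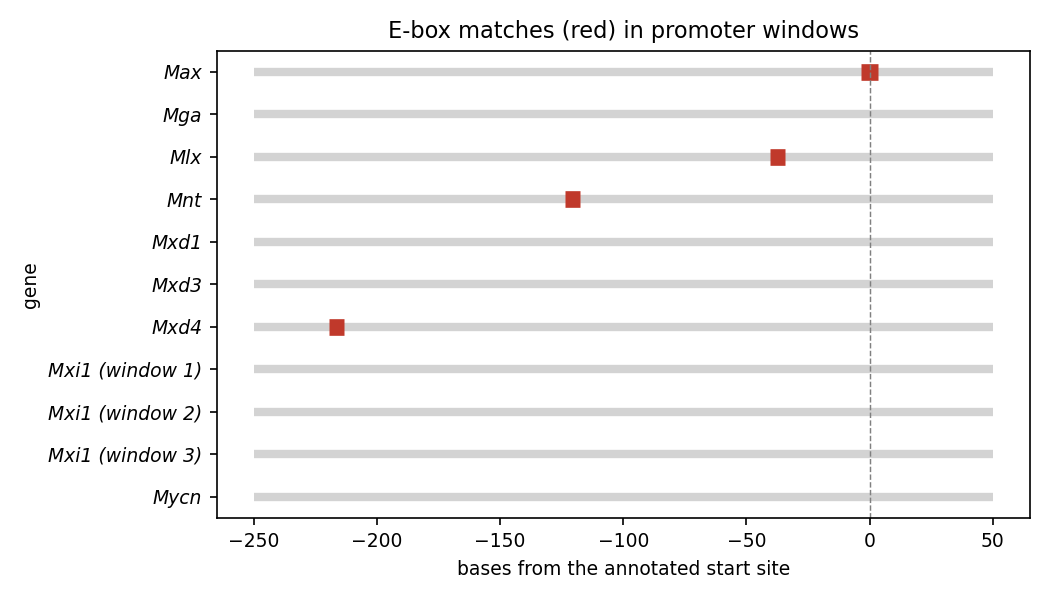
Position of the E-box (red) in the promoter windows of the 9 listed genes (grey bars, 250 bases before to 50 after the RefSeq start; x axis, bases from the start, dashed line at the start). Max, Mlx, Mnt and Mxd4 each hold 1 match, in Max across the RefSeq start.

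Ties among low values gave an estimate of depth, by which 1 CPM (count per 1000000 reads) was worth 5.99 to 7.72 reads in each library. Pearson correlations across genes were 0.964 to 0.974 within groups and 0.923 to 0.945 between groups. All 12 listed T cell and T-ALL markers had a row, among them Cd3d, Cd3e, Lck and Notch1. Their summed level was 1271.7 to 1299.4 CPM in treated and 1539.2 to 1644.8 CPM in untreated libraries, with 2 genes higher and 3 lower by the test. Markers of other blood cells were present too. Summed over 7 erythroid genes the level was 6305.7 to 6707.7 CPM in treated and 6707.9 to 7963.5 CPM in untreated libraries, with 1 gene higher and 4 lower by the test. Summed over 5 B cell genes it was 50.9 to 51.6 and 59.7 to 69.0 CPM, and Pax5 had no row. Of these 5 genes, 0 rose and 2 fell, and the counts were the same at an unadjusted limma p under 0.05. The myeloid genes are given beside Mxd1.

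The members did not move as one. In treated cells the transcripts of Max, Mxd1 and Mlx rose, those of Myc and Mga fell, and those of Mxd3, Mxd4, Mxi1 and Mnt did not pass the test (limma over 12554 genes, Benjamini-Hochberg adjusted p below 0.05). Over all tested genes 19.2% were called higher, 19.0% lower and 38.3% in either direction, so the counts of 3 higher and 2 lower among 9 members are not read as particular to the network. The median log2 fold change was 0.20 over the 9 members and -0.0052 over all tested genes. Treated and untreated libraries did not overlap in 7 of the 9 members, 5 higher and 2 lower, against 25.7% of all tested genes in each direction and 51.4% in either. The deposited values appear to have been quantile normalised between libraries, so a shift of all transcripts one way would not be visible. In RNA from a whole culture, fewer cells of a type and less RNA per cell cannot be told apart.

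The activator Myc (chromosome 15, 61985391 to 61990374) was the member with the fewest reads. It stood at 0.02, -1.62 and -0.52 log2 CPM in treated libraries 1 to 3 and at 1.64, 1.49 and 1.15 log2 CPM in untreated libraries 1 to 3. Every treated library was below every untreated one, and treated library 2 was the lowest. Its log2 fold change was -2.13 (SE 0.48, 95% interval -3.24 to -1.03, limma adjusted p = 0.0107). A size beyond that of Myc was seen in 0.9% of tested genes. These levels correspond to an estimated 6, 2 and 5 reads in treated and 25, 18 and 14 reads in untreated libraries. Over the groups that is 13 against 57 reads, a level 4.24-fold lower for the depth, with an exact binomial 95% interval of 2.29 to 8.45 that covers counting error only. With 1 CPM added before the log, the log2 fold change of Myc was -1.16, since such a constant shrinks changes at low levels. The fall remained past the threshold with that constant and with any 1 library left out (-2.50 to -1.68).

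MAX is a partner shared by MYC and the MXD proteins. Max (chromosome 12, 76937269 to 76962201) had the smallest adjusted p of the members. It was at 7.74, 8.04 and 7.9997 log2 CPM in treated libraries and at 7.09, 7.07 and 6.90 log2 CPM in untreated libraries. The groups lay well apart, with the highest untreated library below the lowest treated one. The rise was 1.88-fold (95% interval 1.59 to 2.22), or 0.91 on the log2 scale (SE 0.10, adjusted p = 0.000872 by limma). It passed with any 1 library left out (0.85 to 1.005), and 15.3% of tested genes changed by more. Reads were summarised per gene, so the transcript forms of Max, which encode proteins of different length, were not separated.

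Of the 6 antagonists, 1 rose, 1 fell and 4 did not pass, against 19.2% of all tested genes called higher and 19.0% lower. Their median log2 fold change was 0.19, against -0.0052 over all tested genes, and 5 of the 6 estimates were above 0. Counts this small are not read as a trend of the antagonists. The antagonist that rose was Mxd1, which encodes a MAX partner that is induced as cells differentiate, in the myeloid lineage among others. Mxd1 (chromosome 6, 86647042 to 86669161) stood at 5.62, 5.81 and 5.53 log2 CPM in treated libraries and at 4.89, 5.30 and 5.16 in untreated libraries. No treated library was as low as any untreated one, and untreated library 1 was the lowest of all. The rise was 1.45-fold (95% interval 1.17 to 1.80; 0.54 on the log2 scale, SE 0.13, and by limma an adjusted p = 0.0158). The call was lost without panobinostat library 2 (log2 fold change 0.46, limma adjusted p = 0.0598, against 0.00626 to 0.0444 in the other fits). Since Mxd1 is also a myeloid gene, the myeloid markers are set beside it. All 11 neutrophil and myeloid markers had a row, with Ly6g the lowest at a mean of 1.51 CPM. By the limma test 0 rose and 5 fell (0 and 6 at an unadjusted p under 0.05). Their summed level was 1238.5 to 1350.0 CPM in treated and 1536.0 to 1714.1 CPM in untreated libraries. The summed markers were thus lower where Mxd1 was higher, and their part in the Mxd1 result was not tested.

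The antagonist that fell was Mga, whose protein carries a T-box besides its MAX-binding domain. Mga (chromosome 2, 119897228 to 119969581) was at 6.14, 6.25 and 6.24 log2 CPM in treated libraries and at 6.80, 6.61 and 6.54 in untreated libraries. The treated libraries lay close together and all below the untreated ones. The level was 1.35-fold lower in treated cells (-0.44 on the log2 scale, SE 0.09, and by limma an adjusted p = 0.00875), and the call held with any 1 library left out (-0.49 to -0.36).

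Mnt encodes a widely expressed MAX-binding repressor, and Mxd4 an antagonist found in many resting and differentiated cells. Mnt (chromosome 11, 74830920 to 74845725) had 3.86, 3.76 and 3.77 log2 CPM in treated and 3.56, 3.40 and 3.27 in untreated libraries. Its groups did not overlap, yet the log2 fold change of 0.38 (SE 0.13, 95% interval 0.07 to 0.70, limma adjusted p = 0.0551) did not pass. The intervals are not adjusted for the number of genes tested. An interval can therefore leave out 0 where the adjusted p does not pass. Without untreated library 1, the highest of its group, the log2 fold change of Mnt was 0.46 and passed (limma adjusted p = 0.0338). The adjusted p of Mnt ran from 0.0132 to 0.158 over all alternatives. Mxd4 (chromosome 5, 34173883 to 34187720) had 7.25, 7.34 and 7.30 log2 CPM in treated and 7.07, 7.06 and 7.16 in untreated libraries. These groups did not overlap either, and the log2 fold change was small, 0.20 (SE 0.07, 95% interval 0.03 to 0.36, limma adjusted p = 0.0594). No alternative brought Mxd4 past 0.05, with adjusted p from 0.0527 to 0.167. An increase of Mxd4 above 1.29-fold lay outside its interval.

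Mxi1, also known as MXD2, and Mxd3, which unlike the other MXD genes is expressed in cycling cells, had groups that overlapped. Mxi1 (chromosome 19, 53310518 to 53375810) ranged from 3.40 to 3.61 log2 CPM in treated and from 3.26 to 3.51 in untreated libraries. Its log2 fold change was 0.08 (SE 0.14, 95% interval -0.25 to 0.41, limma adjusted p = 0.686). Mxd3 (chromosome 13, 55325168 to 55329823) ranged from 2.61 to 2.97 log2 CPM in treated and from 2.45 to 2.74 in untreated libraries, on an estimated 35 to 53 reads per library. Its log2 fold change was 0.18 (SE 0.18, 95% interval -0.24 to 0.61, limma adjusted p = 0.459). The last 105 exonic bases of Mxd3 are shared with the opposite-strand gene Prelid1, and whether counting used strand was not given in the sources used here. Without strand, reads of the 2 genes there could not be told apart. Prelid1 was at 7.91 ± 0.04 log2 CPM in treated and 7.94 ± 0.10 in untreated libraries (SD, n = 3).

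**Figure D2:**
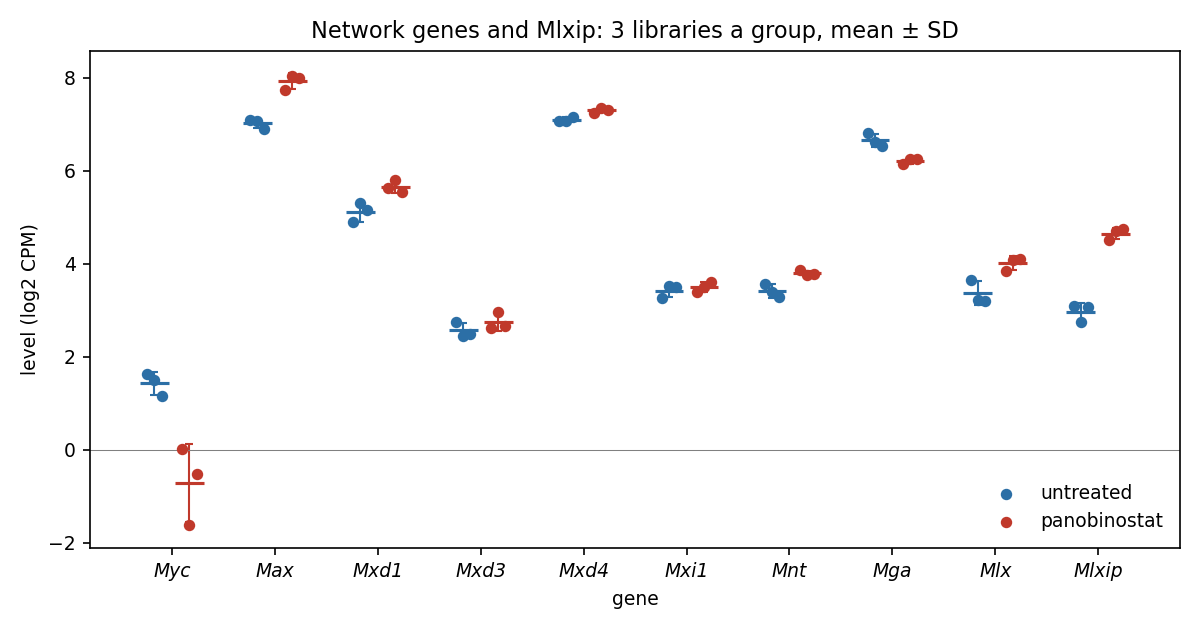
Level of 9 members and of Mlxip in log2 CPM (y axis) in each of 3 untreated (blue) and 3 panobinostat (red) libraries, as points, with the group mean and SD. Max, Mxd1, Mnt, Mxd4, Mlx and Mlxip have all treated libraries above all untreated ones, Myc and Mga have all below, and Mxd3 and Mxi1 overlap.

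Mlx, the partner in the parallel branch, rose. Mlx (chromosome 11, 101087277 to 101092207) stood at 3.84, 4.08 and 4.11 log2 CPM in treated and at 3.66, 3.23 and 3.20 in untreated libraries. Untreated library 1 was close to treated library 1, while the other untreated libraries lay lower. The log2 fold change was 0.65 (SE 0.17, adjusted p = 0.0190 by limma), or 1.57-fold (95% interval 1.20 to 2.05). Mlx no longer passed when panobinostat library 2 (0.61, limma adjusted p = 0.0640) or 3 (0.60, adjusted p = 0.0690) was left out. The same held for untreated library 2 (0.58, adjusted p = 0.0560) and 3 (0.57, adjusted p = 0.0667). The adjusted p of Mlx over all alternatives ran from 0.00278 to 0.0690. The end of Mlx, where reads of 3' ends fall, shares 385 exonic bases with the opposite-strand gene Psmc3ip. The log2 fold change of Psmc3ip was 0.0013 (SE 0.16, adjusted p = 0.996 by limma). Here too, reads in the shared bases could not be told apart without strand, and the values of both genes carry this limit.

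The dimer partner of MLX changed more than any member but Myc. Mlxip (chromosome 5, 123394798 to 123457932), which encodes MondoA, was at 4.51, 4.70 and 4.74 log2 CPM in treated and at 3.09, 2.75 and 3.06 in untreated libraries. The groups were far apart, and the rise was 3.21-fold (95% interval 2.54 to 4.05; 1.68 on the log2 scale, SE 0.15, and by limma an adjusted p = 0.000351). Only 2.59% of tested genes had a larger change in size. Txnip (chromosome 3, 96557957 to 96561883), an inhibitor of glucose uptake and the best-known gene activated by MondoA with MLX, was at 6.41, 6.31 and 6.88 log2 CPM in treated libraries. In untreated libraries Txnip was at 4.77, 3.24 and 3.55 log2 CPM, with untreated library 1 the highest. Its log2 fold change was 2.68 (SE 0.37, adjusted p = 0.00171 by limma). The RefSeq promoter windows of Mlxip and Txnip did not hold CACGTG. Only these exact letters were searched, so sites of another sequence would not have been seen. Of the other listed relatives, Mycl, Mlxipl (which encodes ChREBP, a second glucose-sensing partner of MLX) and the MondoA target Arrdc4 had no row and were not analysed here.

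**Figure D3:**
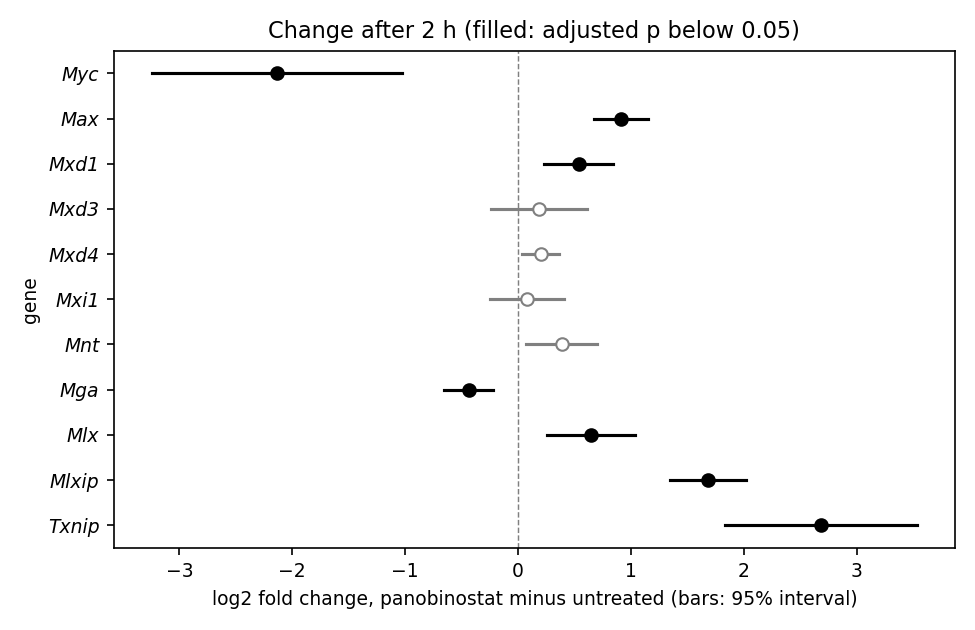
Log2 fold change of each member, of Mlxip and of Txnip, panobinostat minus untreated (x axis), with 95% intervals as bars. Filled points passed an adjusted p of 0.05: Myc and Mga lie below 0, and Max, Mxd1, Mlx, Mlxip and Txnip above 0.

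Differences between members were also taken within each library, on the deposited values. Quantile normalisation moves each value by its rank, so these differences also depend on it. The log2 level of Max minus that of Mga was 1.59, 1.79 and 1.76 in treated libraries and 0.29, 0.45 and 0.36 in untreated libraries. For Max minus Mxd4 the values were 0.49, 0.71 and 0.70 in treated and 0.02, 0.01 and -0.27 in untreated libraries. Both differences were larger in every treated library than in any untreated one. For Max minus Mga this had to follow, since Max rose and Mga fell without overlap, so it is no further result. For Max minus Mxd4 it followed from the ranges of the 2 genes given above. There Max rose by 0.91 and Mxd4 by 0.20 on the log2 scale. Neither that difference nor Max minus Myc, given next, is a further result. Max minus Myc was 7.72, 9.67 and 8.52 in treated and 5.45, 5.57 and 5.75 in untreated libraries, a spread that carries the few Myc reads. Summed on the linear scale, the antagonists Mxd1, Mxd3, Mxd4, Mxi1 and Mnt gave 233, 251 and 236 CPM in treated and 192, 200 and 206 CPM in untreated libraries. With Mga added, the sums were 303, 327 and 312 CPM in treated and 303, 298 and 299 CPM in untreated libraries. The treated and untreated sums thus lay apart without Mga and nearly met with it. The sums follow largely from the levels given above, so they are no further result. Mxd1, Mxd4 and Mnt were each higher in every treated library, and Mga was lower. The largest part came from Mxd4, which did not pass the test. Mxd4 gave 152, 162 and 158 CPM in treated and 134, 133 and 144 CPM in untreated libraries. These sums have no test, since the members were chosen by name with results known.

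Cofactors were examined in lists chosen with earlier results of these data known and have no test as lists. Each is described by its counts, its median and the values of a few named genes. Among 17 genes listed as MYC coactivators, 2 rose and 8 fell, with a median log2 fold change of -0.25, against 19.2% and 19.0% of all tested genes. The called share was 58.8%, against 38.3% of all tested genes. Among the falls was Zbtb17 (-0.59 on the log2 scale), which encodes MIZ1, through which MYC represses. The list is thus not of coactivators alone. Falls included the acetyltransferase genes Kat5 (-1.46 ± 0.10 (SE), limma adjusted p = 0.000218) and Crebbp (-1.19 ± 0.07). Crebbp was at 6.19, 6.20 and 6.19 log2 CPM in treated and at 7.44, 7.41 and 7.31 in untreated libraries. Hcfc1, a host cell factor that binds MYC (-0.99 ± 0.09), and the chromatin remodeller gene Bptf (-0.70 ± 0.07) fell as well. Wdr5, a WD-repeat protein that helps to place MYC on chromatin, rose by 0.92 ± 0.12 on the log2 scale.

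Among 18 genes of MYC protein turnover, 6 rose and 4 fell, with a median log2 fold change of 0.01. The called share was 55.6%, against 38.3% of all tested genes. The deubiquitinase genes Usp28 (0.82 ± 0.13 (SE)) and Usp37 (0.72 ± 0.10) rose. The kinase gene Plk1, also a gene of mitosis, fell (-0.87 ± 0.07). Of 11 other factors that bind CACGTG, 8 were tested, of which 0 rose and 1 fell (limma; 0 and 3 at an unadjusted p under 0.05). The one that fell was Usf2, a ubiquitous E-box factor, at 7.93, 7.88 and 7.68 log2 CPM in treated and 8.69, 9.12 and 8.55 in untreated libraries (-0.96 ± 0.15 (SE) on the log2 scale, limma adjusted p = 0.00255). The share called was 12.5% of these 8, against 38.3% of all tested genes, and the number lower was 2 without untreated library 2.

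MXD proteins and MNT act through corepressors. Of 17 SIN3 and NCOR genes, 7 rose and 1 fell, with a median log2 fold change of 0.25. The called share was 47.1%, against 38.3% of all tested genes. Hdac1, itself a target of panobinostat, rose by 0.65 ± 0.11 (SE), the histone-binding subunit gene Rbbp4 by 0.52 ± 0.11 and the SIN3 subunit gene Arid4b by 0.51 ± 0.08. The 7 rises became 4 without panobinostat library 1, 2 or 3 or without untreated library 3, and the number lower became 2 without untreated library 1. Of 13 genes of the MGA complex, which include Hdac1 and Wdr5 of the lists above, 4 rose and 1 fell, with a median log2 fold change of 0.14. The called share of 38.5% is near the 38.3% of all tested genes. Pcgf6, the polycomb subunit specific to this complex, rose by 0.75 ± 0.17 and the E2F partner gene Tfdp2 by 0.34 ± 0.08. Rnf2, the ubiquitin ligase of polycomb complexes, fell (-0.48 ± 0.13). Rnf2 no longer passed when panobinostat library 1 (-0.46) or 3 (-0.40) or untreated library 2 (-0.41) or 3 (-0.42) was left out, nor Tfdp2 when panobinostat library 3 was (0.31).

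Genes that MYC activates in many cells went both ways. Of 34 tested, 7 rose and 6 fell, with a median log2 fold change of -0.01, against -0.0052 over all tested genes. The called share of 38.2% is near the 38.3% of all tested genes. Slc7a5, an amino acid transporter (1.13 ± 0.13 (SE)), Rrp9 (1.08 ± 0.14) and Nolc1 (0.61 ± 0.07) of ribosome production, and the DNA repair gene Apex1 (0.92 ± 0.12) rose. Nolc1 was at 7.40, 7.42 and 7.41 log2 CPM in treated and at 6.77, 6.87 and 6.75 in untreated libraries. The 6 falls became 2 without panobinostat library 3, and 3 without panobinostat library 1 or 2 or without untreated library 3. Of 7 genes that MYC represses, 2 rose and 1 fell, a called share of 42.9%, with a median log2 fold change of 0.16. The CDK inhibitor gene Cdkn1a, which MYC holds down through MIZ1, rose by 1.29 ± 0.14 and the stress-response gene Ndrg1 by 0.78 ± 0.10, while the CDK inhibitor gene Cdkn2c fell (-0.72 ± 0.12).

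**Figure D4:**
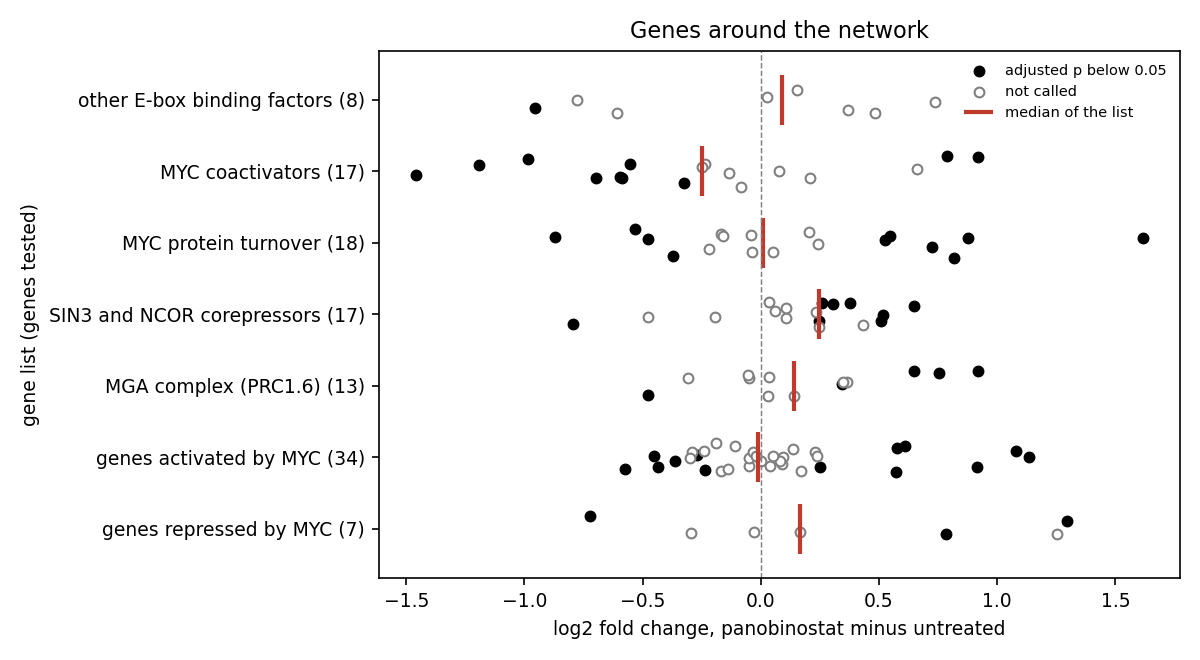
Log2 fold change, panobinostat minus untreated (x axis), of each tested gene in 7 lists around the network (rows, number of genes tested in brackets), with black points past an adjusted p of 0.05 and the median of each list in red. The list headed MYC coactivators, which also holds Zbtb17, has a median of -0.25. SIN3 and NCOR corepressors have a median of 0.25, and genes activated by MYC one of -0.01.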

How the data were processed

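The authors deposited 1 table of log2 values with gene symbols. The submitters' processing notes name the build mm10 and, with no order or role, limma, HISAT2 2.1.0, cutadapt 1.9, featureCounts and Subread 1.5.0. The annotation, the strand setting and any filters are not given in the sources used here. That the values are log2 CPM, quantile normalised, was inferred: their powers of 2 summed to just under 1000000 in each library, and sorted values lay within 0.05 of their common mean in all libraries for 87.6% of rows. Columns were matched to samples by the S number in their names.

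The test took rows whose mean log2 value was 0 or more, and 631 rows fell below this. In R 4.3.3, limma 3.58.1 (lmFit, then eBayes with trend) was fitted to the deposited values of all 12554 genes. The p-values were adjusted by Benjamini and Hochberg, and 0.05 was the threshold. Up to 300 steps between distinct values, 1 step was taken as 1 read. No molecular identifiers were available, so reads may repeat the same molecule and counting intervals cover counting error only.

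Members and lists were chosen with earlier results of these data known. The text names all members, Mlxip, Txnip and up to 4 called genes of each list with the smallest adjusted p not already named, except 2 genes that are not reported here. Genes placed beside these (Prelid1, Psmc3ip) overlap a member, and Hdac1 and Wdr5 stand in 2 lists. Cip2a was matched by the older symbol C330027C09Rik. Gene positions are those of GENCODE release M21 (mm10). The script was tested on simulated data for this comparison of 12554 genes: 48% of 100 genes raised by 1 log2 unit were called, as were 8% of 100 genes changed by -0.5 and 1 unchanged gene. No other genes were changed in the simulation, whereas 38.3% of tested genes were called in the data. The adjusted threshold was therefore stricter in the simulation, and these shares are not detection rates for the data. Alternatives were other filters, scalings, spread models, array weights, a pseudocount of 1 CPM, estimated reads, a threshold of 0.01, the column number as a block and each library left out in turn.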

Additional observations from a re-analysis of the deposited data

How the results depend on the processing

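Over all alternatives, the falls of Myc and Mga and the rise of Max kept their direction, and those of Max and Mga stayed past the threshold. At an adjusted p of 0.01, 1 member was higher (Max) and 1 lower (Mga), and over all genes 1240 were higher and 1273 lower. Requiring a mean log2 of at least 2 removed Myc and left 1 member lower. With each library left out in turn, 1 to 4 members were higher and 2 were lower. Over all genes 1587 to 2664 were then higher and 1636 to 2562 lower, the fewest higher without panobinostat library 3. With 1 library left out, the log2 fold change of Mxi1 ran from -0.00096 (without untreated library 1, limma adjusted p = 0.997) to 0.13. Mnt passed with a mean log2 of at least 2, without a trend, with array weights and on reads estimated from steps.

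Sample titles gave every library the number 1, and the numbers 1 to 3 came from the column names. Deviations of same-numbered libraries correlated at -0.04, 0.10 and -0.01, and those of differently numbered libraries at -0.16 to 0.15. Same-numbered libraries were thus no more alike by this measure. So few correlations cannot exclude a pairing, and the labels do not state one. With the replicate block 3 members were higher and 2 lower, as without it, and 2079 and 2069 genes over all, while the falls among genes activated by MYC went from 6 to 3. Without a trend, those falls were also 3 and the rises among SIN3 and NCOR genes 4, and Rnf2 did not pass. With array weights, 2 of the other CACGTG factors and 2 SIN3 and NCOR genes were lower. No scaling moved the median of all genes by more than 0.1. The library medians were already 4.01 to 4.02 log2 CPM, so this outcome was nearly fixed by the deposited values. Myc had the fewest reads of the members, which limits the precision of its value.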
